A study of Mus musculus with 24 samples.

Results

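Transcripts of 10 collagen genes were followed in injured mouse brain, out of 36333 genes in the expression table. The genes are Col1a1, Col1a2, Col3a1, Col5a1, Col5a2, Col6a1, Col6a2, Col6a3, Col10a1 and Col12a1. They were taken by symbol, and each symbol was found in 1 row. No measured value entered the choice of the rows, but results on these libraries were known when the genes were listed. The libraries came from 24 male C57BL6N mice aged 12 to 16 weeks per the labels, 1 library per mouse, at 5 days post injury (dpi). The study's methods name another substrain, C57BL/6JRj, with both sexes and a narrower age range, and its RNA was from male mice. Traumatic brain injury (TBI) was a controlled cortical impact through a craniotomy, after which the bone piece was put back and glued. The 4 groups with TBI, of 5 mice each, were given PLX3397, Anakinra, both (PLX3397+Anakinra) or neither (vehicle). PLX3397, an inhibitor of CSF1R, the receptor on which microglia depend, was mixed into chow at 290 mg/kg and offered from 90 min after surgery. Anakinra, an antagonist of the interleukin-1 receptor IL1R1, was injected at 100 mg/kg under the skin at 5 min, 24 h, 48 h and 72 h. Vehicle mice had chow without drug and placebo injections, and so did the 4 sham mice. The sham procedure held neither craniotomy nor impact, so that these cannot be told apart in a comparison with sham. RNA came from cryosections of the upper brain quadrant with the lesion, which holds cortex, striatum, hippocampus and thalamus, while the labels name cortex.

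Collagens are proteins of 3 chains wound around each other. Types I, III and V build the banded fibrils of connective tissue, with type I and III chains as the bulk and type V chains starting a fibril and limiting its width. Type VI forms beaded filaments next to cells, type XII lies on the surface of fibrils, and type X is best known from hypertrophic cartilage. In the uninjured brain, fibrillar collagen is mostly found in the meninges and around large vessels. After injury, fibroblasts of these places can lay it down in a scar. Values are labelled TPM, a measure of transcript abundance that by definition corrects for the length of each gene and has the same total in every library. The study's methods add that the software calls the unit CPM, a name for counts without that correction. Levels of different genes can be set side by side only if the length correction was made. Depth is unknown, since the tables hold neither reads nor library totals.

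The stretch of 250 bases before the annotated start of a gene was available for 7 of the 10 genes (RefSeq, GRCm38.p6) and was searched on both strands for TATAAA and CCAAT and also for GGGCGG. Over all 32851 annotated starts, 12.4% of such stretches held TATAAA, 33.8% CCAAT and 32.7% GGGCGG. The first of these was found for Col3a1 and Col10a1, CCAAT for Col1a2, and GGGCGG for Col1a2, Col5a1 and Col6a2, where 2 of the matches overlapped. The whole Col1a2 stretch and parts of those of Col6a1 and Col6a2 lie inside the gene spans given below, which are from GENCODE. Col6a1 and Col6a3 held none of the 3, and Col1a1, Col5a2 and Col12a1 had no entry. The stretches of Col3a1 and Col10a1 are shown, as these are the fibrillar and the non-fibrillar member with the largest log2 fold changes against sham in the drug groups. Capitals mark TATAAA, whose first base lies 117 bases before the start of Col3a1 and 32 bases before that of Col10a1. A match is a run of letters and was not tested as a binding site. The Col3a1 stretch is chr1:45311288-45311537 and that of Col10a1 chr10:34389731-34389980, both on the plus strand, written 5′ to 3′.
Col3a1: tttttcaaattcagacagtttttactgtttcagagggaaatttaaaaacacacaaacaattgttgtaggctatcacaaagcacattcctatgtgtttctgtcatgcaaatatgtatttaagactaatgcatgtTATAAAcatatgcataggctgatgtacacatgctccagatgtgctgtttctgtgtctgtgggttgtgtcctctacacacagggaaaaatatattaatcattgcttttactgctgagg
Col10a1: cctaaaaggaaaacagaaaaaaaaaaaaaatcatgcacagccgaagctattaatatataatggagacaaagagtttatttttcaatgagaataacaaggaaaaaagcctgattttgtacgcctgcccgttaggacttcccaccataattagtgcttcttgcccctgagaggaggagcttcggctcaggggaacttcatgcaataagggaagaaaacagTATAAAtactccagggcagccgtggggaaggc

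The vehicle group was not uniform, and the later comparisons rest on this. Summed over the 10 collagens, vehicle mice J17B and J20B stood at 135 and 174 TPM, whereas J01B, J18B and J19B stood at 675, 812 and 789 TPM. The sham mice spanned 104 to 124 TPM, and no mouse of the drug groups was below 559 TPM. J17B and J20B were the 2 lowest vehicle mice for 10 of 10 genes. J17B lay at or below the highest sham mouse for 4 of the 10 genes and J20B for 3 of 10. The lowest of the other 3 vehicle mice exceeded the higher of these 2 by a factor of 10.9 for Col10a1, 8.79 for Col3a1, 7.21 for Col1a1 and 1.14 for Col6a1, the widest and the narrowest included. Both mice nevertheless carried the glial response to injury. Gfap, the intermediate filament of reactive astrocytes, was at 1593, 1589, 2437, 2022 and 2085 TPM in J01B, J17B, J18B, J19B and J20B, and at 106 to 122 TPM in sham mice. Cd68, a lysosomal protein of activated phagocytes, was at 302, 209, 308, 321 and 294 TPM in the same order, and at 15.1 to 17.8 TPM in sham mice. The 15 markers of fibroblasts and meninges summed to 189 and 196 TPM in J17B and J20B, to 243 to 259 TPM in the other vehicle mice, and to 157 to 176 TPM in sham mice. For the 12 markers of pericytes and smooth muscle the sums were 179.7 and 205 TPM, 241 to 281 TPM, and 167 to 177 TPM. Postn (periostin, a matrix protein of activated fibroblasts) was at 4.29 and 4.19 TPM in these 2 mice, at 14.3 to 19.8 TPM in the other 3 vehicle mice, and at 2.87 to 4.75 TPM in sham mice. The part of tissue sampling or of any other difference between these mice was not tested. Vehicle animals are also those whose numbers end in the letter B. What the letter stands for is not given in the sources used here, and if it marks a batch, batch and vehicle group cannot be told apart. Each comparison of the 10 collagens with vehicle is therefore given with and without J17B and J20B, a choice made after their values were seen.

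**Figure D1:**
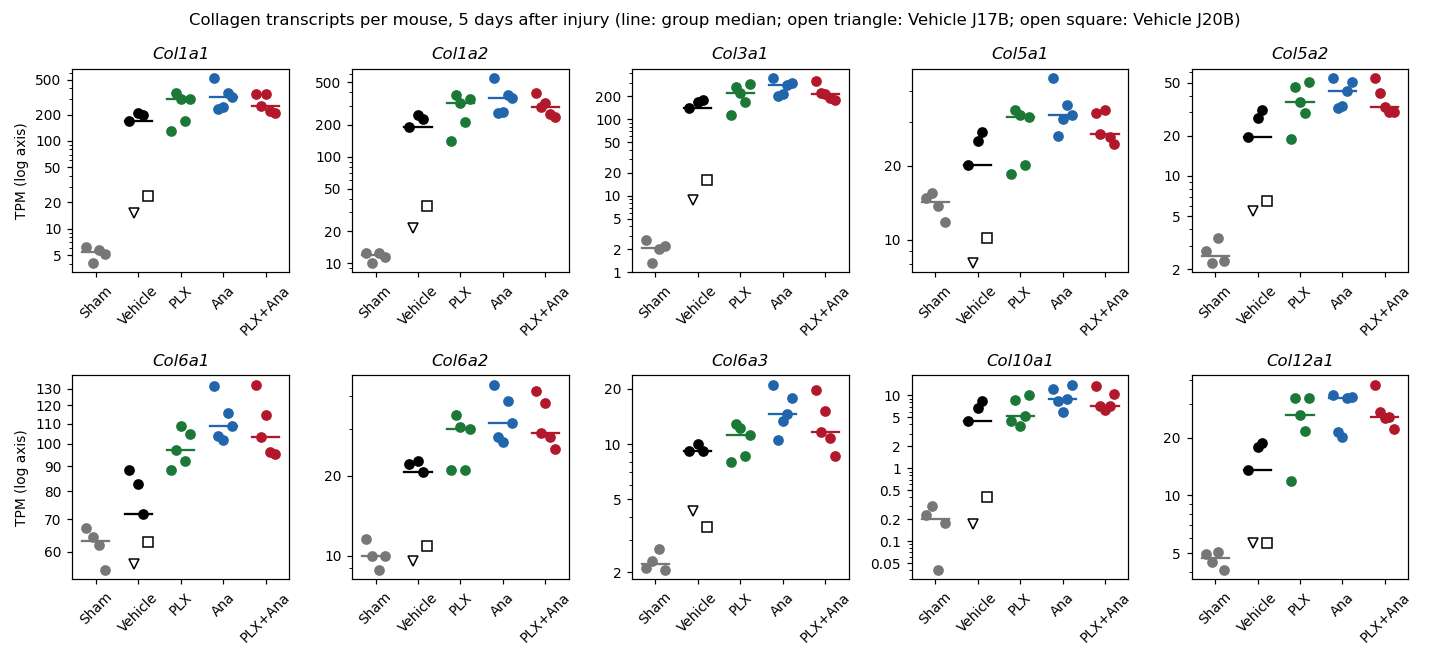
TPM (log axis) of each of the 10 collagen genes, 1 panel per gene, 1 point per mouse and a line at the group median, for Sham (n = 4), Vehicle, PLX3397 (PLX), Anakinra (Ana) and PLX3397+Anakinra (PLX+Ana) mice (n = 5 each). In every panel the open symbols, vehicle mice J17B and J20B, lie below the other 3 vehicle mice, and no drug-treated mouse lies in the sham range.

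The type I chains Col1a1 (chr11:94936224-94953042, plus strand of GRCm38) and Col1a2 (chr6:4504814-4541544, plus strand) assemble into the main fibril-forming collagen. For Col1a1 the vehicle mice J01B, J17B, J18B, J19B and J20B had 169, 15.1, 206, 196 and 23.4 TPM, and the sham mice had 6.11, 4.05, 5.66 and 5.14 TPM. The values were 132, 348, 298, 171 and 302 TPM with PLX3397, 525, 232, 246, 352 and 314 TPM with Anakinra, and 343, 247, 341, 218 and 207 TPM with PLX3397+Anakinra. All 20 injured mice lay above all 4 sham mice, but J17B and J20B lay nearer to sham than to the rest of their group. Col1a2 ran alongside, with 188, 21.5, 245, 226 and 34.5 TPM in vehicle mice and 12.4, 10.03, 12.4 and 11.5 TPM in sham mice. The values were 142, 379, 317, 209.5 and 346 TPM with PLX3397, 549, 257, 264, 377 and 358 TPM with Anakinra, and 396, 290.2, 322, 251 and 235 TPM with PLX3397+Anakinra. The ratio of Col1a2 to Col1a1 was 2.03 to 2.48 in sham mice, 1.43 and 1.48 in J17B and J20B, and 0.943 to 1.23 in the other injured mice. The ratio was thus lower in each injured mouse than in each sham mouse.

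Type III collagen, the product of Col3a1 (chr1:45311538-45349706, plus strand), is co-assembled with type I in early scar tissue. Col3a1 was at 139.8, 8.75, 169, 179.6 and 15.9 TPM in vehicle mice J01B to J20B and at 2.68, 1.32, 2.00 and 2.19 TPM in sham mice. The values were 114, 269, 219, 167 and 293 TPM with PLX3397, 351, 204, 214, 284 and 303 TPM with Anakinra, and 321, 225, 213, 190.0 and 178 TPM with PLX3397+Anakinra. The vehicle values spanned 20.5-fold, against 1.72- to 2.58-fold in the drug groups. Of the type V chains, Col5a1 (chr2:27886425-28039514, plus strand) had 20.2, 8.05, 25.2, 27.3 and 10.2 TPM in vehicle mice and 14.7, 15.4, 13.7 and 11.8 TPM in sham mice. J17B and J20B were thus below all sham mice for this gene. The values were 18.6, 33.8, 32.1, 20.1 and 31.4 TPM with PLX3397, 45.4, 26.4, 30.8, 35.2 and 31.98 TPM with Anakinra, and 32.7, 26.8, 33.5, 26.2 and 24.6 TPM with PLX3397+Anakinra. Col5a2 (chr1:45374321-45503282, minus strand) had 19.8, 5.44, 27.1, 31.3 and 6.52 TPM in vehicle mice and 2.73, 2.21, 3.42 and 2.31 TPM in sham mice. The values were 18.9, 46.2, 36.1, 29.8 and 50.4 TPM with PLX3397, 54.6, 32.1, 33.3, 43.8 and 51.2 TPM with Anakinra, and 54.5, 41.6, 32.95, 30.1 and 30.2 TPM with PLX3397+Anakinra. Although both chains form the same collagen, Col5a1 started from a sham level of 13.9 ± 1.60 TPM (SD, n = 4), against 2.67 ± 0.550 TPM for Col5a2, and stayed within a narrower range.

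The type VI genes had the highest sham levels of the set in Col6a1 (chr10:76708792-76726168, minus strand). Col6a1 stood at 67.03, 64.2, 62.1 and 55.02 TPM in sham mice and at 88.4, 56.6, 82.9, 71.7 and 62.9 TPM in vehicle mice. The values were 88.6, 97.1, 109, 92.3 and 105 TPM with PLX3397, 132, 104, 102, 116 and 109 TPM with Anakinra, and 132, 103, 115, 96.2 and 95.5 TPM with PLX3397+Anakinra. Sham and vehicle values overlapped, and every drug-treated mouse was above the highest vehicle mouse. Col6a2 (chr10:76595762-76623630, minus strand) had 11.6, 10.02, 8.85 and 10.02 TPM in sham mice and 22.2, 9.54, 22.9, 20.6 and 10.9 TPM in vehicle mice. The values were 20.99, 34.04, 30.6, 21.02 and 30.1 TPM with PLX3397, 44.05, 28.1, 26.9, 38.2 and 31.5 TPM with Anakinra, and 41.6, 28.9, 37.5, 27.98 and 25.3 TPM with PLX3397+Anakinra. The 2 low vehicle mice lay within the sham range for Col6a2. Col6a3 (chr1:90765923-90843971, minus strand), whose chain is the longest of the type VI filament, had 2.11, 2.29, 2.68 and 2.05 TPM in sham mice and 9.12, 4.30, 10.01, 9.14 and 3.53 TPM in vehicle mice. The values were 8.02, 12.8, 12.2, 8.62 and 11.2 TPM with PLX3397, 21.1, 10.6, 13.4, 14.6 and 17.8 TPM with Anakinra, and 19.8, 11.6, 15.1, 10.8 and 8.66 TPM with PLX3397+Anakinra. The ratio of Col6a1 to Col6a3 was 23.2 to 31.8 in sham mice and 6.12 to 17.8 in the injured mice, so that the 3 chains did not rise in proportion.

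Type X collagen comes from Col10a1 (chr10:34389981-34397085, plus strand), which had 0.227, 0.303, 0.0400 and 0.176 TPM in sham mice and 4.40, 0.173, 6.77, 8.37 and 0.403 TPM in vehicle mice. The values were 4.41, 8.52, 3.85, 5.17 and 10.2 TPM with PLX3397, 12.4, 8.49, 5.98, 8.84 and 14.02 TPM with Anakinra, and 13.5, 7.21, 6.28, 7.17 and 10.6 TPM with PLX3397+Anakinra. Of the vehicle mice, J17B lay within the sham range and J20B just above it. Col10a1 lies inside the span of Nt5dc1, which is read from the opposite strand and had 2.12 to 6.18 TPM over the 24 libraries. Whether the counting used the strand is not stated, so that reads of these genes may not be separable. Type XII collagen, from Col12a1 (chr9:79598991-79718831, minus strand), had 4.94, 4.51, 5.08 and 4.08 TPM in sham mice and 13.5, 5.66, 17.9, 18.8 and 5.66 TPM in vehicle mice. The values were 11.9, 32.2, 26.3, 21.7 and 32.1 TPM with PLX3397, 33.4, 21.4, 20.2, 32.3 and 32.3 TPM with Anakinra, and 37.7, 27.1, 25.4, 25.6 and 22.1 TPM with PLX3397+Anakinra. For Col12a1 the low vehicle mice were just above the highest sham mouse. Annotated non-coding genes on the opposite strand also overlap Col5a1 and Col12a1, and they are not among the rows used here.

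Spread within a group was summarised as the SD of log2(TPM + 1). In vehicle mice it was 2.03 for Col3a1, 1.81 for Col1a1, 1.64 for Col1a2, 1.41 for Col10a1 and 1.09 for Col5a2, and from 0.26 to 0.79 for the other 5 genes. The median over the 17267 genes tested was 0.119 in vehicle mice, with a 99th percentile of 0.577. Col3a1 was more variable among vehicle mice than 99.97% of the genes tested, and Col6a1 than 87.9%. In the 3 drug groups the SD of the 10 collagens ran from 0.12 to 0.61, and in sham mice from 0.12 to 0.28. The vehicle SD was the highest of the 5 groups for 10 of 10 genes. These are descriptions without a test.

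Most of the 10 collagens were higher in injured vehicle mice than in sham mice. Between vehicle and sham mice, 8 of 10 rose (limma on log2(TPM + 1), Benjamini-Hochberg adjusted p below 0.05 over 17267 genes), while 26.6% of all genes tested were called higher. The log2 fold change was 4.29 (standard error 0.59, adjusted p = 1.17e-06) for Col3a1, 3.64 (standard error 0.55, adjusted p = 4e-06) for Col1a1 and 2.95 (standard error 0.50, adjusted p = 2.04e-05) for Col1a2. It was 2.10 (standard error 0.36, adjusted p = 2.76e-05) for Col5a2, 1.63 (standard error 0.45, adjusted p = 0.00338) for Col10a1 and 1.08 (standard error 0.29, adjusted p = 0.00312) for Col12a1. Of the type VI genes, Col6a3 rose by 1.23 (standard error 0.24, adjusted p = 0.000122) and Col6a2 by 0.64 (standard error 0.22, adjusted p = 0.0153). Col5a1 and Col6a1 did not pass, with values of 0.23 (standard error 0.25, adjusted p = 0.467) and 0.20 (standard error 0.11, adjusted p = 0.122). Without J17B and J20B all 10 passed, each as higher. Of all genes 52.2% were then called in either direction, and the share called higher was not taken. The values became 0.75 (standard error 0.19, adjusted p = 0.00156) for Col5a1 and 0.38 (standard error 0.11, adjusted p = 0.00449) for Col6a1. Vehicle mice were all above sham mice for 6 of 10 genes, against 21.7% of all genes. In bulk RNA, more cells of a type and more transcripts per cell cannot be told apart.

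In each drug group 10 of 10 collagens rose against sham. Of all genes, 22.7% were called higher with PLX3397, 25.1% with Anakinra and 20.7% with PLX3397+Anakinra. The values for Col3a1 were 6.07 (standard error 0.59, adjusted p = 9.38e-09) on the log2 scale with PLX3397, 6.47 (standard error 0.59, adjusted p = 1.65e-09) with Anakinra and 6.20 (standard error 0.59, adjusted p = 9.63e-09) with the combination. For Col6a1, the smallest, they were 0.65 (standard error 0.11, adjusted p = 3.04e-05), 0.84 (standard error 0.11, adjusted p = 5.85e-07) and 0.79 (standard error 0.11, adjusted p = 3.64e-06). The median over the 10 genes was 1.43 in vehicle mice, 2.35 with PLX3397, 2.74 with Anakinra and 2.67 with PLX3397+Anakinra, and over all genes it lay between -0.04 and -0.01. These 4 comparisons share the sham mice. No drug-treated mouse overlapped a sham mouse for any of the 10 genes, where 16.9 to 21.3% of all genes had no overlap in this direction. Over the 5 groups together, limma's F-test called 10 of 10, against 51.9% of all genes.

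**Figure D2:**
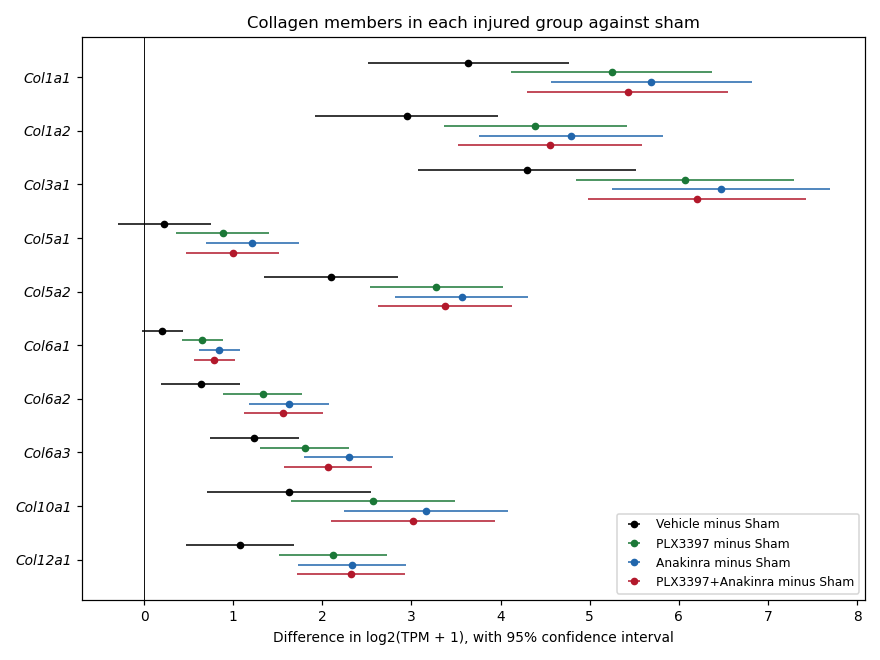
Difference in log2(TPM + 1) between each injured group and sham for the 10 collagen genes, from the limma model over 24 libraries, with points for the estimate and bars for the 95% confidence interval. The intervals of Col5a1 and Col6a1 in vehicle mice include 0, and all intervals of the drug groups lie above 0.

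Whether the drugs changed the collagen response was asked against vehicle. With PLX3397, 6 of 10 collagens were higher (Col1a1, Col3a1, Col5a2, Col6a1, Col6a2 and Col12a1), where 3.23% of all genes were called higher. On the log2 scale Col3a1 rose by 1.78 (standard error 0.56, adjusted p = 0.0427), Col1a1 by 1.61 (standard error 0.51, adjusted p = 0.0473) and Col12a1 by 1.04 (standard error 0.28, adjusted p = 0.0164). Col6a1 rose by 0.45 (standard error 0.10, adjusted p = 0.0054). Col1a2 was near the threshold, at 1.44 (standard error 0.47, adjusted p = 0.052), and the largest adjusted p was that of Col10a1, at 0.95 (standard error 0.42, adjusted p = 0.173). Without J17B and J20B, 0 of 10 passed in limma and 1 was higher at an unadjusted p below 0.05, where 10.8% of all genes were. The share of all genes called in either direction was 11.3%, against 9.89% with all mice. The share called higher was 3.75%, against 3.23%. The value of Col3a1 became 0.31 (standard error 0.24, adjusted p = 0.473), that of Col6a1 0.28 (standard error 0.10, adjusted p = 0.079) and that of Col10a1 -0.06 (standard error 0.27, adjusted p = 0.926). All 5 PLX3397 mice were above all 5 vehicle mice for Col6a1 alone, where this held for 1.98% of all genes. Leaving out J20B alone left 1 of 10 called, and leaving out J17B, or PLX3397 mice J02, J12 or J20, left 2. In exact two-sided permutation tests on 5 against 5 mice, p was 0.00794 for Col6a1, the smallest this design allows, 0.0476 for Col12a1, and 0.0635 to 0.246 for the other 8. The study's own lists for PLX3397, made with an unadjusted p and other thresholds given below, name Col5a2 and Col12a1. Other cell markers moved in these mice as well. All 10 markers of microglia and macrophages fell, with summed levels of 1149 to 1820 TPM against 2453 to 3494 TPM in vehicle mice. All 5 genes of red blood cells fell too, with sums of 606 to 1072 TPM against 1507 to 4406 TPM. Their part in the collagen result was not tested.

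With Anakinra, 2 of 10 collagens passed, Col6a1 at 0.64 (standard error 0.10, adjusted p = 0.02) and Col6a2 at 0.99 (standard error 0.20, adjusted p = 0.0487), where 0.0695% of all genes were called higher. The other 8 had log2 fold changes from 0.99 (Col5a1) to 2.18 (Col3a1) and adjusted p from 0.0587 (Col6a3) to 0.12 (Col10a1). All 10 were higher at an unadjusted p below 0.05 in limma, where 5.5% of all genes were (12.4% in either direction). All 5 Anakinra mice were above all 5 vehicle mice for 8 of 10 collagens, against 1.14% of all genes. The exceptions were Col5a1 and Col10a1. The study's plots used an unadjusted p below 0.05, a ratio of means above 2 and a difference above 4 TPM. With these thresholds and limma's p, 7 of 10 were higher, against 0.162% of all genes. The study's own lists for Anakinra name Col1a1, Col1a2, Col3a1, Col5a2, Col6a3, Col10a1 and Col12a1. The highest vehicle value was that of J01B, J18B or J19B for each gene, so that leaving out J17B and J20B cannot change the count of 8. The share of 1.14% is for all 5 vehicle mice and was not taken without J17B and J20B. The exact permutation p ran from 0.00794, the smallest possible, to 0.0397 (Col10a1). Without J17B and J20B, 0 of 10 passed in limma, while 0.0869% of all genes did in either direction and 0.0116% as higher. At an unadjusted p below 0.05, 9 of the 10 collagens were higher, where 4% of all genes were. Col1a1 then stood at 0.75 (standard error 0.27, adjusted p = 0.332) instead of 2.05 (standard error 0.51, adjusted p = 0.0968), and Col6a1 at 0.47 (standard error 0.10, adjusted p = 0.0774). The count also moved with single mice, from 0 without vehicle mouse J20B or Anakinra mouse J21 to 9 without vehicle mouse J18B and 10 without vehicle mouse J19B. It was 4 without PLX3397 mouse J01, 3 without PLX3397+Anakinra mouse J03, 2 without vehicle mouse J01B, PLX3397 mouse J02 or PLX3397+Anakinra mouse J09, and 1 without each of the other 15 mice.

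Bone transcripts were seen in part of this group. Bglap (osteocalcin, made by osteoblasts) was at 23.7 TPM in Anakinra mouse J05 and at 21.1 TPM in PLX3397+Anakinra mouse J04, listed at 0 in all vehicle mice, and at most 2.53 TPM in the others. Ibsp (bone sialoprotein) was at 9.86 and 3.80 TPM in J05 and J04. The 10 osteoblast markers summed to 67.0 and 52.7 TPM in these 2 mice and to 18.1 to 28.0 TPM in the other 22. J05 was the highest Anakinra mouse for 9 of 10 collagens, with 525 TPM of Col1a1, and J04 was the highest of its group for 0 of 10. Without both mice, a choice made after these values were seen, 0 of 10 collagens passed for Anakinra against vehicle, 4 for PLX3397 and 10 for PLX3397+Anakinra, while 0.029%, 9.82% and 16.5% of all genes were called in either direction. The shares called higher were 0%, 3.21% and 7.83%. For Anakinra the log2 fold change of Col1a1 was then 1.88 (standard error 0.56, adjusted p = 0.183) and that of Col6a1 0.58 (standard error 0.11, adjusted p = 0.0509), and over the 10 collagens it ran from 0.58 to 2.08. All 10 were higher at an unadjusted p below 0.05, where 5% of all genes were.

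With PLX3397+Anakinra, 10 of 10 collagens rose against vehicle, where 7.88% of all genes were called higher. The log2 fold change was 1.91 (standard error 0.56, adjusted p = 0.0187) for Col3a1, 1.79 (standard error 0.51, adjusted p = 0.017) for Col1a1 and 1.61 (standard error 0.47, adjusted p = 0.0188) for Col1a2. It was 1.40 (standard error 0.42, adjusted p = 0.0224) for Col10a1, 1.28 (standard error 0.34, adjusted p = 0.0103) for Col5a2 and 1.24 (standard error 0.28, adjusted p = 0.00245) for Col12a1. Of the type VI genes, Col6a2 rose by 0.93 (standard error 0.20, adjusted p = 0.00203), Col6a3 by 0.83 (standard error 0.23, adjusted p = 0.0126) and Col6a1 by 0.58 (standard error 0.10, adjusted p = 0.000236), and Col5a1 rose by 0.77 (standard error 0.24, adjusted p = 0.0274). The groups did not overlap for 4 of 10, Col1a1, Col6a1, Col6a2 and Col12a1, against 4.09% of all genes. The exact permutation p ran from 0.00794 to 0.0635. With limma's p and the thresholds of the study's plots 6 of 10 were higher, against 0.0985% of all genes. The study's own lists for the combination name Col1a1, Col1a2, Col3a1, Col5a2 and Col12a1, and hold Col6a3 and Col10a1 for Anakinra only. Without J17B and J20B, 3 of 10 passed, with 0.41 (standard error 0.10, adjusted p = 0.00574) for Col6a1, 0.52 (standard error 0.17, adjusted p = 0.0376) for Col6a2 and 0.68 (standard error 0.23, adjusted p = 0.0469) for Col12a1. Of all genes, 7.68% were then called higher and 17.6% in either direction, against 7.88% and 17.5% with all mice. Without J20B alone, 5 of the 10 collagens passed. The same marker lists moved as with PLX3397. All 10 microglia and macrophage markers and all 5 genes of red blood cells fell, with sums of 937 to 1250 TPM and 725 to 951 TPM, and their part in the collagen result was not tested. The 3 comparisons share the vehicle mice, so that a low vehicle value enters each of them.

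**Figure D3:**
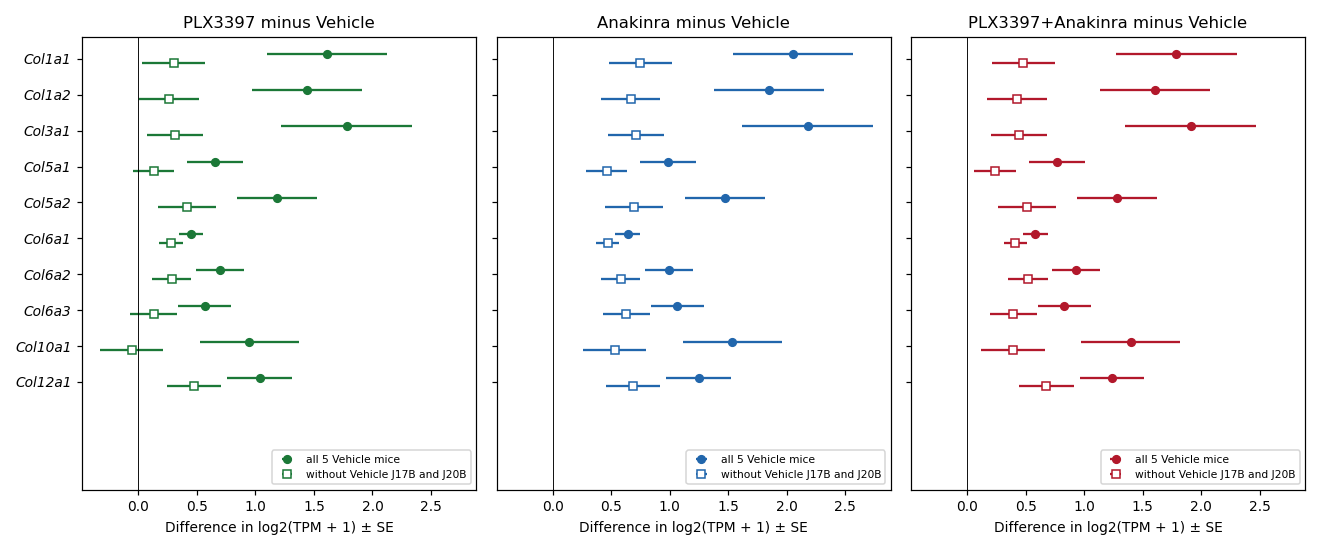
Difference in log2(TPM + 1) between each drug group and vehicle for the 10 collagen genes, with standard errors from limma. Filled circles use all 5 vehicle mice and open squares leave out J17B and J20B. The open squares lie closer to 0 for each gene in each panel, for example at 0.31 instead of 1.78 for Col3a1 with PLX3397, and that of Col10a1 with PLX3397 lies at -0.06.

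No collagen was called different between the combination and either single drug. Against PLX3397 alone, 0 of 10 collagens passed in limma and 0 had an unadjusted p below 0.05, while 0.151% of all genes were called in either direction. Against Anakinra alone, it was again 0 of 10 and 0 of 10, while 12.8% of all genes were called. For Col1a1 the difference was 0.18 against PLX3397 (95% confidence interval -0.88 to 1.24) and -0.27 against Anakinra (interval -1.33 to 0.80). For Col6a1, with the narrowest intervals, it was 0.13 (interval -0.08 to 0.35) and -0.06 (interval -0.27 to 0.16). The smallest exact permutation p was 0.175 against PLX3397 and 0.214 against Anakinra. The interaction compares the change that Anakinra made on top of PLX3397 with the change it made on top of vehicle. No collagen passed in limma (0 of 10), and 0 of all 17267 genes did. At an unadjusted p below 0.05 there were 9 of 10, all negative, from -0.51 for Col6a1 to -2.05 for Col3a1, where 8.08% of all genes reached it. The count was 1 of 10 without J17B and J20B, where 5.93% of all genes reached it.

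Proteins that process and bind collagen were counted from lists. Between vehicle and sham mice, 26.6% of all genes were called higher and 27.7% lower. Against vehicle, 6.66% of all genes were called lower with PLX3397 and 9.6% with PLX3397+Anakinra, beside the shares called higher given above. Without J17B and J20B, 3.75% were higher and 7.52% lower with PLX3397, and 7.68% and 9.92% with the combination. Of 19 genes for modifying and folding procollagen, 16 rose between vehicle and sham mice, among them Plod1, a lysyl hydroxylase (log2 fold change 1.44, standard error 0.10, adjusted p = 6.31e-12), P4ha3, a prolyl hydroxylase chain (1.87, standard error 0.12, adjusted p = 1.38e-12), Crtap (1.06, standard error 0.13, adjusted p = 1.68e-07) and P4hb (0.82, standard error 0.09, adjusted p = 1.32e-08). Plod1 was lower with PLX3397 (-0.41, standard error 0.09, adjusted p = 0.00444) and with PLX3397+Anakinra (-0.48, standard error 0.09, adjusted p = 0.000581) than with vehicle. The list had 0 higher and 3 lower with PLX3397, and 4 higher and 2 lower with the combination, and without J17B and J20B it had 0 higher and 5 lower with each. Plod1 was then at -0.53 (adjusted p = 0.000151) and -0.60 (adjusted p = 1.97e-05). With Anakinra 0 of 19 passed in limma, and 9 had an unadjusted p below 0.05. Of 11 genes for secretion and cleavage, 4 rose and 2 fell after injury, near the share over all genes, 54.3% in either direction. Pcolce, an enhancer of procollagen cleavage, rose by 1.14 (standard error 0.19, adjusted p = 1.13e-05). Against vehicle 1 of the 11 was higher with PLX3397 (Tll1) and 1 with the combination (Adamts2), and 0 of 11 in both without J17B and J20B. Of 5 cross-linking enzymes tested, 5 rose, with 2.51 (standard error 0.45, adjusted p = 3.86e-05) for Lox, 2.10 (standard error 0.30, adjusted p = 1.93e-06) for Loxl2, 1.59 (standard error 0.23, adjusted p = 3.27e-06) for Loxl1 and 1.23 (standard error 0.13, adjusted p = 2.56e-08) for Loxl3. With PLX3397 1 of the 5 was higher than with vehicle, and with PLX3397+Anakinra 2 were, including Lox at 1.23 (standard error 0.42, adjusted p = 0.0442). Leaving out J17B and J20B gave 0 higher and 1 lower in both.

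Among 13 proteins that bind fibrils, 8 rose after injury, with 2.04 (standard error 0.31, adjusted p = 3.78e-06) for the small proteoglycan Bgn (biglycan), 1.88 (standard error 0.25, adjusted p = 5.77e-07) for Fn1 (fibronectin), 1.08 (standard error 0.17, adjusted p = 6.53e-06) for Dcn (decorin) and 1.04 (standard error 0.12, adjusted p = 6.30e-08) for Sparc. With PLX3397 and with PLX3397+Anakinra 6 of 13 were higher than with vehicle, which became 1 and 2 without J17B and J20B. With Anakinra it was 0 of 13 in limma, and 9 had an unadjusted p below 0.05. Genes for breaking down and taking up collagen gave 8 of 10 higher after injury, where 26.6% of all genes were called higher (27.7% lower). Against vehicle, 0 were higher and 2 lower with PLX3397, 1 higher and 1 lower with Anakinra, and 2 higher and 3 lower with the combination. The counts became 0 and 3, 0 and 1, and 0 and 3 without J17B and J20B. Mmp8, a collagenase of neutrophils, was at 3.82 ± 0.437 TPM (SD, n = 5) in vehicle mice and listed at 0 in sham mice. It was lower with PLX3397 (-0.52, standard error 0.11, adjusted p = 0.00209), with Anakinra (-0.65, standard error 0.11, adjusted p = 0.02) and with both (-1.54, standard error 0.11, adjusted p = 2.43e-10), and without J17B and J20B the values were -0.61 (adjusted p = 0.0019), -0.74 (adjusted p = 0.0152) and -1.62 (adjusted p = 1.68e-09). Ctsb, a lysosomal protease, was lower with PLX3397 (-0.53, standard error 0.08, adjusted p = 7.45e-05) and with PLX3397+Anakinra (-0.81, standard error 0.08, adjusted p = 6.48e-08), whereas Mmp14, a membrane-bound collagenase, had 0.29 (standard error 0.20, adjusted p = 0.419) and 0.28 (standard error 0.20, adjusted p = 0.373). The higher ones, named after their values were seen, were Ctsk, a collagen-cleaving cathepsin, with Anakinra (1.29, standard error 0.26, adjusted p = 0.046) and the combination (0.76, standard error 0.26, adjusted p = 0.0436), and Mmp2, a gelatinase, with the combination (0.70, standard error 0.22, adjusted p = 0.0296). Ctsl, another lysosomal protease, was lower with the combination (-0.57, standard error 0.11, adjusted p = 0.000409). Collagen receptors gave 9 of 11 higher after injury. Against vehicle, 0 were higher and 2 lower with PLX3397, and 1 higher (Itga11) and 3 lower with the combination, which became 0 and 3 in both without J17B and J20B. Lair1, an inhibitory receptor on leukocytes, was lower with PLX3397 (-0.94, standard error 0.09, adjusted p = 1.01e-07) and the combination (-1.14, standard error 0.09, adjusted p = 1.70e-09), and Itgb1, a subunit of the collagen-binding integrins, had -0.01 (standard error 0.10, adjusted p = 0.958) and -0.12 (standard error 0.10, adjusted p = 0.501). Lair1 was at -0.99 (adjusted p = 5.88e-07) and -1.18 (adjusted p = 1.78e-08) when J17B and J20B were left out. Of 14 regulators of collagen genes, 9 were higher and 1 lower after injury. Against vehicle 2 were higher and 3 lower both with PLX3397 and with the combination, and 0 and 3 without J17B and J20B. Tgfb1, a cytokine that induces fibrillar collagen, rose by 2.13 (standard error 0.12, adjusted p = 1.36e-13), and it was lower with PLX3397 (-1.03, standard error 0.11, adjusted p = 3.63e-07) and with PLX3397+Anakinra (-1.14, standard error 0.11, adjusted p = 2.70e-08), with -1.15 (adjusted p = 2.96e-07) and -1.26 (adjusted p = 3.06e-08) once both mice were left out. The others that were lower, named after their values were seen, were its receptors Tgfbr1 (-0.76, standard error 0.06, adjusted p = 1.38e-08 and -0.92, standard error 0.06, adjusted p = 2.29e-10) and Tgfbr2 (-0.63, standard error 0.09, adjusted p = 1.83e-05 and -0.80, standard error 0.09, adjusted p = 2.14e-07). The higher ones were the transcription factor Twist1 (0.69, standard error 0.22, adjusted p = 0.0498 and 0.72, standard error 0.22, adjusted p = 0.0272) and Ctgf, a matrix-bound growth regulator (0.27, standard error 0.08, adjusted p = 0.0381 and 0.27, standard error 0.08, adjusted p = 0.0239).

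The other genes of the collagen family, 34 by symbol and 32 tested, were counted in the same comparisons. Between vehicle and sham mice 20 rose and 2 fell, where 26.6% of all genes were called higher and 27.7% lower. The largest changes were those of Col18a1 (1.45, standard error 0.23, adjusted p = 9.26e-06), Col4a6 (1.43, standard error 0.13, adjusted p = 1.39e-09) and Col7a1 (1.20, standard error 0.29, adjusted p = 0.00121). With PLX3397 against vehicle 1 was higher and 3 were lower, which were Col14a1, a collagen on fibril surfaces (0.81, standard error 0.23, adjusted p = 0.0219), Col6a5 (-0.47, standard error 0.10, adjusted p = 0.00274), Col27a1 (-0.37, standard error 0.09, adjusted p = 0.0106) and Col4a3. With PLX3397+Anakinra 1 was higher and 4 were lower, Col14a1 again being the higher one (0.77, standard error 0.23, adjusted p = 0.0184), and with Anakinra 0 of 32 passed in limma while 12 had an unadjusted p below 0.05. It was, without J17B and J20B, 0 higher and 5 lower with PLX3397, and 0 higher and 8 lower with the combination. Col14a1 was then at 0.45 (adjusted p = 0.224) with PLX3397 and 0.42 (adjusted p = 0.217) with the combination. The median of the 32 was 0.05, 0.11 and 0.03 with PLX3397, Anakinra and the combination, beside 0.99, 1.36 and 1.26 for the 10 collagens. Without J17B and J20B these medians were -0.12, 0.03 and -0.11 for the 32, beside 0.28, 0.65 and 0.43 for the 10. The 10 were listed with earlier results of these data known.

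**Figure D4:**
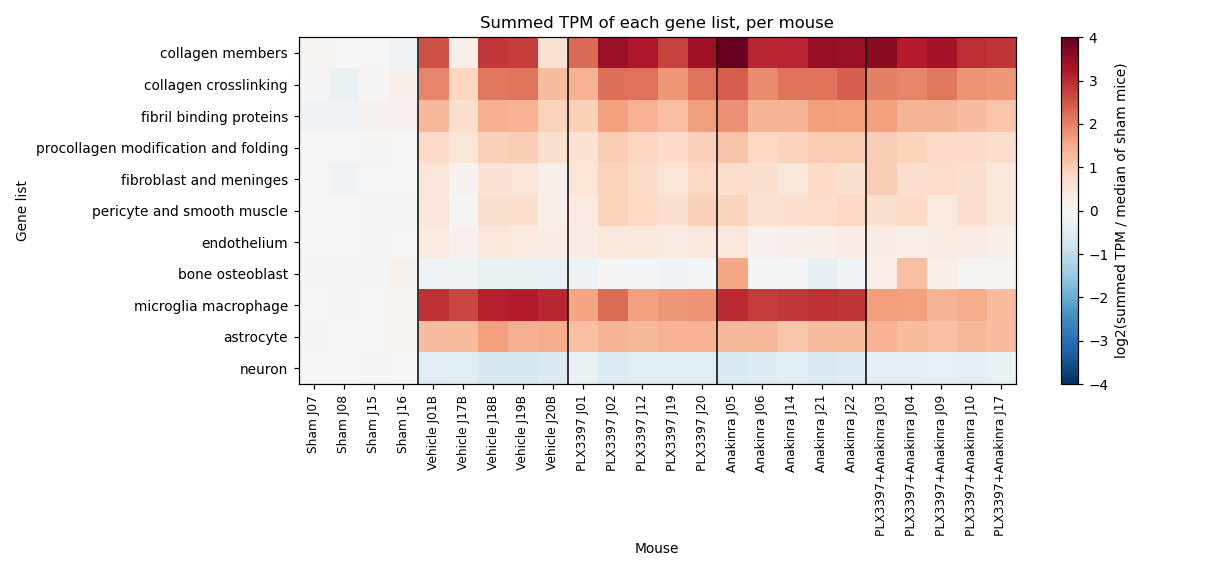
Summed TPM of each gene list in each of the 24 mice, as log2 of the ratio to the median of the 4 sham mice, with black lines between groups. Vehicle mice J17B and J20B are pale in the row of the 10 collagens, and red to orange in the microglia and astrocyte rows. The fibroblast and pericyte rows are pale in all mice on this colour scale, so that colour there does not set J17B and J20B apart. Anakinra J05 and PLX3397+Anakinra J04 stand out in the osteoblast row.

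The genes whose log2(TPM + 1) followed the mean of the 10 collagens most closely over the 24 libraries were Bgn (Pearson r = 0.994), Rcn3 (0.991), Lox (0.991), Eln (0.989, elastin) and Serpinh1 (0.988, the collagen chaperone HSP47). Over the 20 injured mice r was 0.974 to 0.992. The libraries share groups, so these values are a description without a test. Serpinh1 was at 102, 45.4, 144, 162 and 52.5 TPM in vehicle mice J01B, J17B, J18B, J19B and J20B, at 91.3 to 231 TPM in the drug groups, and at 20.1 to 24.9 TPM in sham mice. Bgn was at 107, 36.2, 130.1, 136 and 44.4 TPM in the same vehicle mice and at 16.5 to 21.1 TPM in sham mice. These genes were chosen by their likeness over libraries that include J17B and J20B.

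Cell markers around these genes gave the following counts. Between vehicle and sham mice 10 of 14 markers of fibroblasts and meninges rose, with 1.35 (standard error 0.37, adjusted p = 0.00318) for Mfap4 and 0.94 (standard error 0.12, adjusted p = 4.22e-07) for Prrx1. Of the markers of pericytes and smooth muscle 7 of 12 rose and 1 fell, and of endothelial markers 7 of 10 rose. Over all genes, 26.6% were called higher and 27.7% lower in this comparison. Against vehicle, fibroblast and meningeal markers had 3 higher and 1 lower with PLX3397, 0 of 14 with Anakinra in limma (7 at an unadjusted p below 0.05), and 4 higher and 1 lower with the combination. These counts were 0 and 1, 0 and 0, and 1 and 1 without J17B and J20B. Mfap4 was higher with PLX3397 (1.52, standard error 0.35, adjusted p = 0.00481) and with PLX3397+Anakinra (1.56, standard error 0.35, adjusted p = 0.00228), and without both mice it was at 0.82 (adjusted p = 0.0692) and 0.87 (adjusted p = 0.0388). Pericyte and smooth muscle markers had 2 higher and 1 lower with PLX3397 and 0 and 1 with the combination, and 0 and 1 in both without these mice. The summed level of the fibroblast and meningeal list was 189 to 259 TPM in vehicle mice and 246 to 325 TPM with PLX3397. It was 235 to 299 TPM with Anakinra and 229 to 340 TPM with the combination. Its part in the collagen result was not tested. Endothelial markers had 0 of 10 called in each of the 3 comparisons with vehicle in limma. At an unadjusted p below 0.05 there were 1 with PLX3397, 2 with Anakinra and 2 with the combination. Of all genes, 12.4% reached this with Anakinra. For PLX3397 and the combination the share was not taken with all mice. It was 22.7% and 29.4% without J05 and J04, and 23.7% and 29.8% without J17B and J20B. Without J17B and J20B, 2 of 10 passed in limma as lower with the combination. Neuronal markers summed to 6726 to 7059 TPM in sham mice and to 4275 to 5819 TPM over the injured mice.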

How the data were processed

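Bulk RNA from 24 mice was sequenced in paired-end mode, 1 library per mouse. The authors mapped the reads to mouse genome GRCm38 in CLC Genomics Workbench and deposited TPM per gene, a unit in which each library sums to 1e+06. Reads and depth are not recorded in the tables, and whether counting used the strand is not given in the sources used here. Groups were taken from the labels, and each library is a separate mouse.

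From the deposited TPM, 17267 of 36333 genes, those averaging 0.5 TPM or more, were kept, and log2(TPM + 1) was fitted over the 5 groups with limma 3.58.1 in R 4.3.3, with a variance trend and no covariate. The pseudocount of 1 understates changes of low genes such as Col10a1. P-values were adjusted by Benjamini-Hochberg over all genes tested, and adjusted p below 0.05 was called. The study's methods name t-tests with a fold change, which limma replaced. Exact two-sided permutation tests used scipy 1.17.1 in Python 3.11.15, and the smallest p they can give is 0.00794 for 5 against 5 mice and 0.0159 for 5 against 4. The script was tested on simulated data.

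The 10 collagens and the gene lists were chosen with earlier results of these data known. All 10 collagens were named. From each list of functions up to 4 genes with the smallest adjusted p in a comparison with vehicle or sham were named, from the other collagens up to 3 by size of change, and Col4a3 and the cell markers after their values were seen. Alternatives changed the pseudocount, the filter, the scaling, the samples fitted, the variance model, the call and the mice included. Protein sequences were not used here.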

Additional observations from a re-analysis of the deposited data

Results flagged for a closer look

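No collagen had a mouse that stood apart from its group by Dixon's test in 50 groups of values. The test weighs the gap between the most extreme value and its neighbour. Low mice next to each other, such as vehicle mice J17B and J20B, can therefore hide each other from it. Over all 120 groups tested, 9 values stood apart at the 95% level, and chance gives about 1 in 20. Cd68 was lowest in vehicle mouse J17B at 208.8 TPM and highest in sham mouse J08 at 17.84 TPM. Gfap was lowest in PLX3397 mouse J01 at 1576 TPM, a mouse that was also the lowest PLX3397 mouse for 9 of 10 collagens. The other values that stood apart were of bone. Bglap was highest in Anakinra mouse J05 at 23.66 TPM, in PLX3397+Anakinra mouse J04 at 21.13 TPM and in sham mouse J16 at 2.527 TPM. Ibsp was highest in Anakinra mouse J05 at 9.86 TPM. The summed osteoblast markers were highest in their groups in J05 at 66.99 TPM and in J04 at 52.68 TPM.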

How the results depend on the processing

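Against sham, 10 of 10 collagens were called for each drug group when single mice were left out, and 7 to 9 for vehicle (10 without J17B and J20B). The counts against vehicle moved more. Leaving out 1 mouse at a time gave 1 to 8 for PLX3397, 0 to 10 for Anakinra and 5 to 10 for PLX3397+Anakinra, and 0 to 0 for the interaction and for the combination against each single drug. For Anakinra the count was 1 with a pseudocount of 0.1, 1 without the filter, 1 with median-ratio scaling and 1 without the variance trend. It was 0 with only the compared groups. With limma's unadjusted p and the study's thresholds, a ratio above 2 and a difference above 4 TPM, it was 7. For PLX3397 it was 2 without the filter and 1 with only the compared groups. For PLX3397+Anakinra it was 3 with only the compared groups and 6 with limma's unadjusted p and the study's thresholds. Choices made after the data were seen gave 0 for PLX3397, 0 for Anakinra and 3 for PLX3397+Anakinra without J17B and J20B, and 0 for Anakinra without J05 and J04. The cause was not tested, except that fewer mice or genes enter some of these fits.

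Vehicle and PLX3397 mice share 3 numbers, and over these 6 mice 0 collagens were called with the replicate block and 0 without a block, with 711 and 748 of all genes called. The pairs' deviations correlated at 0.217, 0.0214 and -0.157. With 3 pairs these values cannot show whether the mice share more than a number.

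Of the log2 fold changes against vehicle, 989 of 990 alternatives were positive. The exception was Col10a1 with PLX3397, at -0.057 without J17B and J20B. The alternatives refit nearly the same mice and are not independent, and every other setting kept J17B, J20B or both. Their signs therefore say little about the size of the changes. Without both mice the median of the 10 collagens with PLX3397 was 0.28 instead of 0.99. For the combination against PLX3397, leaving out single mice gave ranges across 0 of -0.029 to 0.320 for Col1a1, -0.057 to 0.297 for Col1a2, -0.074 to 0.266 for Col3a1, -0.012 to 0.196 for Col5a1, -0.108 to 0.234 for Col5a2 and -0.030 to 0.311 for Col12a1, the lowest without PLX3397 mouse J01. Against Anakinra the ranges were -0.130 to 0.0018 for Col6a1, -0.158 to 0.037 for Col6a2 and -0.124 to 0.063 for Col12a1. Without J05 and J04 the values were 0.016 for Col6a1, 0.069 for Col6a2, 0.0068 for Col10a1 and 0.062 for Col12a1. None of these was called.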
